A study of Mus musculus with 2 samples.

Results

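Open chromatin of the alpha-globin cluster was described in G1E-ER4 cells, from every peak that the deposited lists held between 32.18 and 32.35 Mb of chromosome 11 on mm10. This 170 kb window holds the 6 genes described here, which are the adult alpha-globin genes Hba-a1 and Hba-a2, the embryonic gene Hba-x, the theta-globin genes Hbq1a and Hbq1b, and Nprl3. It held 13 of the 20080 regions of the authors' conservative list, and 252 of the 696532 peaks in all 13 lists together. Each region was placed by its summit, the point of largest signal, either at a gene's promoter (within 1 kb of a start site of a protein-coding transcript), within the body of Nprl3, or elsewhere.

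The measurements came from 2 ATAC-seq libraries, in which a transposase cuts open DNA and tags the ends for sequencing. Replicates 1 and 2, of 50000 cells each, formed a single group, namely G1E-ER4 cells (male and of strain C57BL/6J, per the labels) held for 24 hours in 10 nM 17Beta-estradiol. The line descends from erythroid cells without Gata1 and carries GATA1 fused to the hormone-binding part of the estrogen receptor, so that estradiol restores GATA1 activity and starts red cell maturation. There was no untreated group, so no value here is a change brought about by estradiol. Read depth per library is unknown. The libraries' own thresholded lists held 14012 regions for replicate 1 and 15564 for replicate 2, and the labels do not say whether the replicates came from separate cultures. Of 10 erythroid marker genes, 9 had a promoter region (42.3% of all protein-coding genes had one), the exception being Alas2. Only 5 were called in both libraries' own thresholded lists, beside 80.7% of all promoter regions. Slc4a1 was called in replicate 1 only, Gata1 in replicate 2 only, and Klf1 and Tal1 in neither. None of the 4 liver, 4 T cell, 4 B cell and 5 granulocyte and macrophage markers had a promoter region.

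Hba-a1 and Hba-a2 encode the alpha chains of adult hemoglobin, and Hba-x encodes the zeta chain of the embryonic form. Their expression in red cell precursors depends on a group of enhancers that lies upstream, mostly within introns of Nprl3, a housekeeping gene that encodes a subunit of the GATOR1 complex and restrains mTORC1 when amino acids are scarce. In the mouse these enhancers are known, in order towards the globin genes, as R1, R2, R3 and Rm, with R4 between Nprl3 and Hba-x. R1 and R2 are known as the stronger activators, and the others are known mainly to help them act. GATA1 binds them with TAL1, LDB1 and partner proteins, often at a composite of part of an E-box and a GATA site. CTCF, a protein that bounds chromatin loops, is known to bind on both sides of the cluster.

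The 5 conservative regions that followed this order stood at −30.6, −25.4, −20.1, −11.1 and −7.24 kb from the first annotated start of Hba-x. The files name no enhancer, so the names R1, R2, R3, Rm and R4 rest on order alone and are not used further. Their sequences, the summit with 100 bp on either side on GRCm38, are shown because all of them held a GATA match. Capitals mark GATA (A or T, then GATA, then A or G), the composite (CTG, 7 to 9 bases of any kind, then GATA) and TGANTCA, the core recognised by AP-1 and NF-E2, on either strand. A GATA match on the minus strand therefore reads as its reverse complement, such as TTATCT.
Region at −30.6 kb, chr11:32245698-32245898, plus strand: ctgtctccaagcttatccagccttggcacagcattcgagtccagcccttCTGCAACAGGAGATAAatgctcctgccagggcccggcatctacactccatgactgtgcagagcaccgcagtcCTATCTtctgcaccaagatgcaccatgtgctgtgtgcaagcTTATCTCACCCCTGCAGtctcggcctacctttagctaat
Region at −25.4 kb, chr11:32250947-32251147, plus strand: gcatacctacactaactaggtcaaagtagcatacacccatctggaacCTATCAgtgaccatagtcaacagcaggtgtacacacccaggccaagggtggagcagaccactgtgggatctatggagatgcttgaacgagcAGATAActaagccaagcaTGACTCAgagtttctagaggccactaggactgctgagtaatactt
Region at −20.1 kb, chr11:32256231-32256431, plus strand: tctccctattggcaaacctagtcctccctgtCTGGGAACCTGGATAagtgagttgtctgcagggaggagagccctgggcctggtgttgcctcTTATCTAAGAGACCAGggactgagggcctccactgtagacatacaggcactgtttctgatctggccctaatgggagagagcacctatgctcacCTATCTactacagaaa
Region at −11.1 kb, chr11:32265183-32265383, plus strand: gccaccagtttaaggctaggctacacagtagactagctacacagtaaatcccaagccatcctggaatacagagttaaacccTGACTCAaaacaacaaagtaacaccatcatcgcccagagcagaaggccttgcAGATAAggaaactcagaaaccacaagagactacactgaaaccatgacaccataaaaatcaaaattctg
Region at −7.24 kb, chr11:32269062-32269262, plus strand: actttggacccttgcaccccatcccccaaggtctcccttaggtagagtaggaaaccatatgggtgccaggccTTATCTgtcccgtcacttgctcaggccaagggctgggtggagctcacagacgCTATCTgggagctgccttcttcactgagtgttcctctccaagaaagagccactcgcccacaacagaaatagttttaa

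Both composites of the −30.6 kb sequence overlapped a GATA match (CTGCAACAGGAGATA on the plus strand and CTGCAGGGGTGAGATA on the minus strand), and another GATA match lay between them. In the −20.1 kb sequence, the minus-strand composite CTGGTCTCTTAGATA spanned the summit, between 7 bp on its left and 7 bp on its right. The −25.4 kb and −11.1 kb sequences held no composite, but each held TGACTCA, at 56 bp right of the summit in one and between 19 and 13 bp left of it in the other. The −7.24 kb sequence held a pair of GATA matches and neither of the other motifs.

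In all, 4 of these regions lay within Nprl3 itself, and the one with the largest signal stood at −20.1 kb. A signal here is the authors' enrichment value of a peak, of unstated scale, used to rank peaks within a list. The −20.1 kb region, at chr11:32256007-32256692, had a signal of 15.9 in the conservative list, 14.5 in the own list of replicate 1 and 11.8 in that of replicate 2. Its summit lay in an exon of a noncoding Nprl3 transcript whose annotated start, at 32256413, was 82 bp away. That placed it at rank 3475 of 20080 regions, in the top 17.3%, and at rank 715 of 10583 among distal regions, those away from promoters, in the top 6.76%. The order depended on the value ranked, since by −log10 p it stood in the top 34.2% and the −30.6 kb region stood ahead of it, in the top 29.8%.

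The −30.6 kb region, at chr11:32245468-32246037 in an intron, had a signal of 14.01 in the conservative list, 11.4 in replicate 1 and 12.2 in replicate 2. The −25.4 kb region, at chr11:32250844-32251295 and likewise intronic, had 13.6 in the conservative list, 11.6 in replicate 1 and 11.5 in replicate 2. Among distal regions they stood in the top 12.5% and 14.5%. The order of these 3 regions was not the same in both libraries: −20.1 kb had the largest signal in replicate 1 (14.5, beside 11.4 and 11.6) and −30.6 kb in replicate 2 (12.2, beside 11.5 and 11.8).

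The regions nearer to the globin genes were weaker. The −11.1 kb region, at chr11:32265109-32265475 in an Nprl3 intron, had a signal of 8.09 in the conservative list, 5.93 in replicate 1 and 7.01 in replicate 2. The −7.24 kb region, at chr11:32269026-32269294 and at −1455 bp from the Nprl3 start, had 8.98 in the conservative list, 7.25 in replicate 1 and 8.13 in replicate 2. Both were lower than the other 3 in each replicate, and both lay below the median signal of all distal regions, 9.36.

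**Figure D1:**
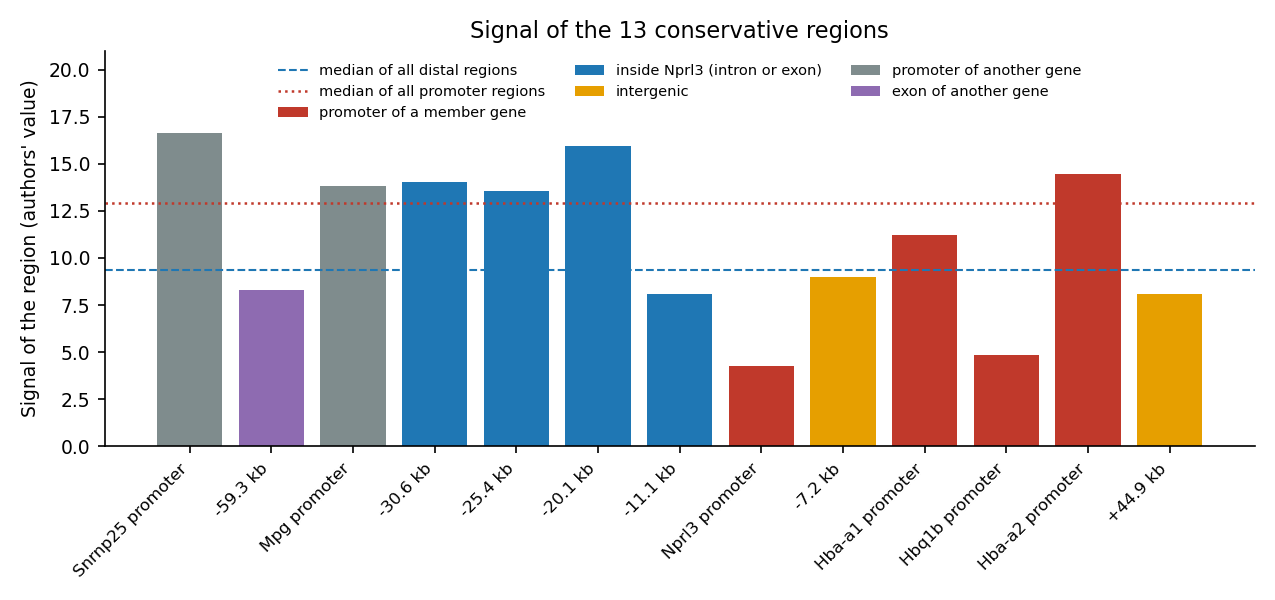
Signal (the authors' enrichment value, y axis) of the 13 conservative regions of the alpha-globin window, in chromosome order, with bars coloured by where the summit lies; labels in kb give the distance from the first Hba-x start. The regions at −30.6, −25.4 and −20.1 kb stood above the median of all distal regions (dashed, 9.36), the promoters of Nprl3 (4.29) and Hbq1b (4.84) were lowest, and the Hba-a2 promoter (14.5) exceeded that of Hba-a1 (11.2).

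For counts of genes, a promoter region was any region that overlapped 1 kb on either side of a start, wherever its summit lay. Promoter regions were found at 4 of the 6 genes in the conservative list, beside 42.3% of all protein-coding genes. With the summit required within 1 kb, the number was also 4. It was the same in the pooled IDR list (42.6%), in the replicated list (46.9%) and at an IDR below 0.01 (40.6%). The own list of replicate 1 (38.8%) and that of replicate 2 (39.9%) each had 2 of the 6, Hba-a1 and Hba-a2. The Hba-a2 promoter region, at chr11:32296109-32296759, had a signal of 14.5 in the conservative list, 13.4 in replicate 1 and 12.4 in replicate 2. The Hba-a1 promoter region, at chr11:32283239-32283898, had 11.2 in the conservative list, 9.47 in replicate 1 and 10.9 in replicate 2. Hba-a1 was lower than Hba-a2 in both replicates, with a ratio of Hba-a1 to Hba-a2 of 0.774 in the conservative list, 0.71 in replicate 1 and 0.877 in replicate 2. Among all regions, Hba-a1 stood in the top 45.6% by signal and the top 17.4% by −log10 p, and Hba-a2 in the top 24.2% by signal and the top 12.1% by −log10 p. Among promoter regions alone they stood in the top 62.7% for Hba-a1 and 39.2% for Hba-a2 by signal.

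The pair is a near copy, and the sources used here do not give how reads matching both copies were placed. Of the 32-base words in the Hba-a1 region, 87.0% occurred elsewhere in the genome, and of those in the Hba-a2 region 95.3%, in both cases inside the same window. How the signal divides between the 2 genes is therefore uncertain. The 250 bases before the RefSeq starts of Hba-a1 and Hba-a2 were identical over all 247 aligned bases, so 1 sequence, from RefSeq on GRCm38.p6, stands for both, with its TGATAA match in capitals.
Hba-a2 promoter, chr11:32296242-32296491, plus strand: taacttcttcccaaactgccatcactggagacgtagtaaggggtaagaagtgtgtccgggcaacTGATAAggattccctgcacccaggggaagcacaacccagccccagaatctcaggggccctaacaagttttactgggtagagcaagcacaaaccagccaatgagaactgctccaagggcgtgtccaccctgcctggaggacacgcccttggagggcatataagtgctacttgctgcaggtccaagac
Once the copies were aligned, the Hba-a1 summit fell within 5 bp of the Hba-a2 summit in the conservative list, 6 bp in replicate 1 and 7 bp in replicate 2. From the RefSeq start, the summit stood at −93 bp in Hba-a1 and −101 bp in Hba-a2, right of the TGATAA match.

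Hbq1b and Hbq1a, the theta-globin copies, differed in the lists. The Hbq1b promoter region, at chr11:32286694-32287075, had a signal of 4.84 in the conservative list, 4.55 in replicate 1 and 4.6 in replicate 2, and the first of these placed it at rank 9265 of 9497 promoter regions. Hbq1a had no conservative region, and its weak peak at chr11:32299933-32300160 had a signal of 3.77 in the pooled pseudoreplicated list and 4.77 in the list of replicate 1, with none in that of replicate 2. The 250 bases before their RefSeq starts were the same at 239 positions (95.6%) and differed at 11, marked by capitals in the sequences of both, and the CTCF pattern (CC, 3 bases of any kind, AGG, 1 base of any kind, then GGC) stood at the same place in both, from −30 to −19, as CCGCCAGGGGGC on the minus strand.
Hbq1b promoter, chr11:32286714-32286963, plus strand: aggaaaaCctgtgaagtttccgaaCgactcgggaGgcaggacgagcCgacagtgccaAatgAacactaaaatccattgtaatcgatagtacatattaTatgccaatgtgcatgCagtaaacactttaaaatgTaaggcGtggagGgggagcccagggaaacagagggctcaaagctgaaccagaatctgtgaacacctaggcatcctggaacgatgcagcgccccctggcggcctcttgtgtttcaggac
Hbq1a promoter, chr11:32299819-32300068, plus strand: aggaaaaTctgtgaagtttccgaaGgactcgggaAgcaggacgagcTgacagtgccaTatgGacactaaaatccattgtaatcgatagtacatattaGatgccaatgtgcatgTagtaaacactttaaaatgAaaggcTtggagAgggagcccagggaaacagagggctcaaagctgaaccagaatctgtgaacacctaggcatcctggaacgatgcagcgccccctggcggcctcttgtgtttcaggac
Of the 32-base words, 32.8% in the Hbq1b region and 46.2% in the weak Hbq1a peak occurred elsewhere, so how signal divides between these copies is uncertain as well. The CTCF pattern was in 2.93% of all RefSeq promoter sequences of this length.

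Hba-x was the member with no peak at its promoter in any of the lists. The nearest peak edge in any list was 6336 bp from an Hba-x start, and the stretch free of peaks around the gene ran from 32269582 to 32283229, a span of 13.65 kb. Its promoter sequence was not without motifs: the 250 bases before the RefSeq start held AGATAG from −234 to −229 on the minus strand, TGATAA from −108 to −103, and the KLF pattern CCNCNCCC from −83 to −76. Of all RefSeq promoters, 26.5% held a GATA match and 45.9% the KLF pattern.

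The promoter of Nprl3, at chr11:32267511-32267822, had a signal of 4.29 in the conservative list, 5.13 in replicate 1 and 5.36 in replicate 2. It had the lowest conservative signal of the window, at rank 9383 of 9497 promoter regions, while in each replicate's own list Hbq1b was lower. Its summit, 25 bp from the annotated start, stood in GC-rich sequence (69.7% G or C and 26 CpG within 100 bp on either side, against a median of 16 CpG over promoter regions). The genes of its partners examined were the other GATOR1 subunits (Nprl2 and Depdc5), the opposing GATOR2 complex (Wdr59, Wdr24, Seh1l, Mios and Sec13) and the KICSTOR complex that anchors GATOR1 to lysosomes (Kptn and Itfg2). All of these had a promoter region, 9 of 9, beside 42.3% of all protein-coding genes, with signals of 8.29 for Kptn to 22.6 for Wdr59. All of the signals exceeded that of the Nprl3 promoter, and all 9 regions were called in both replicates, beside 80.7% of all promoter regions. Genes for the regulators of alpha-globin (Gata1, Tal1, Ldb1, Lmo2, Klf1, Nfe2, Zfpm1 and Atrx) also had promoter regions, 8 of 8, with signals of 5.34 for Tal1 to 19.1 for Atrx. Of these, 5 were called in both replicates, beside 80.7% of all promoter regions. Gata1 was called in replicate 2 only, and Tal1 and Klf1 in neither. Over all conservative regions, distal ones included, 11.7% were called in replicate 2 only and 21.4% in neither.

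Open regions were crowded in the window beside tiles over the whole genome, which were not matched to it in gene content. It held 13 regions, 7 of them distal (52.7% of all conservative regions were distal), whereas tiles of the same length over the genome held 1.25 regions on average, 0.661 of them distal. Of 16022 tiles, 0.343% held at least 13 regions and 0.949% at least 7 distal ones. Nprl3, 42.1 kb long, held 4 distal regions in its body, all with GATA and 2 with the composite. Of all protein-coding genes, 1.35% held at least as many distal regions, 0.458% at least as many with GATA, and 0.732% at least as many with the composite.

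The 5 genes with the most composite-bearing regions in their bodies were all longer than Nprl3. Gm20388 had 16 such regions over 4435 kb, Gse1, whose annotated span lies within that of Gm20388 so that its regions are counted in both, had 5 over 352.9 kb, Mtss1 4 over 140.8 kb, Chst11 4 over 210.4 kb and Rere 4 over 340.3 kb. The 16045 genes no longer than Nprl3 are not matched to it in length, since it is itself the upper limit. Among these genes, 0.0810% held at least as many distal regions and 0.0249% at least as many with GATA. Those with as many GATA regions were 4 genes, Nprl3 included, and the others were Dhrs3, Gypc and Nadk2, named here after their values were seen. Of these 4 genes, Nprl3 had 2 composite-bearing regions, and Dhrs3, Gypc and Nadk2 had 1 each. The share of all genes no longer than Nprl3 with as many composite-bearing regions is not given.

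**Figure D2:**
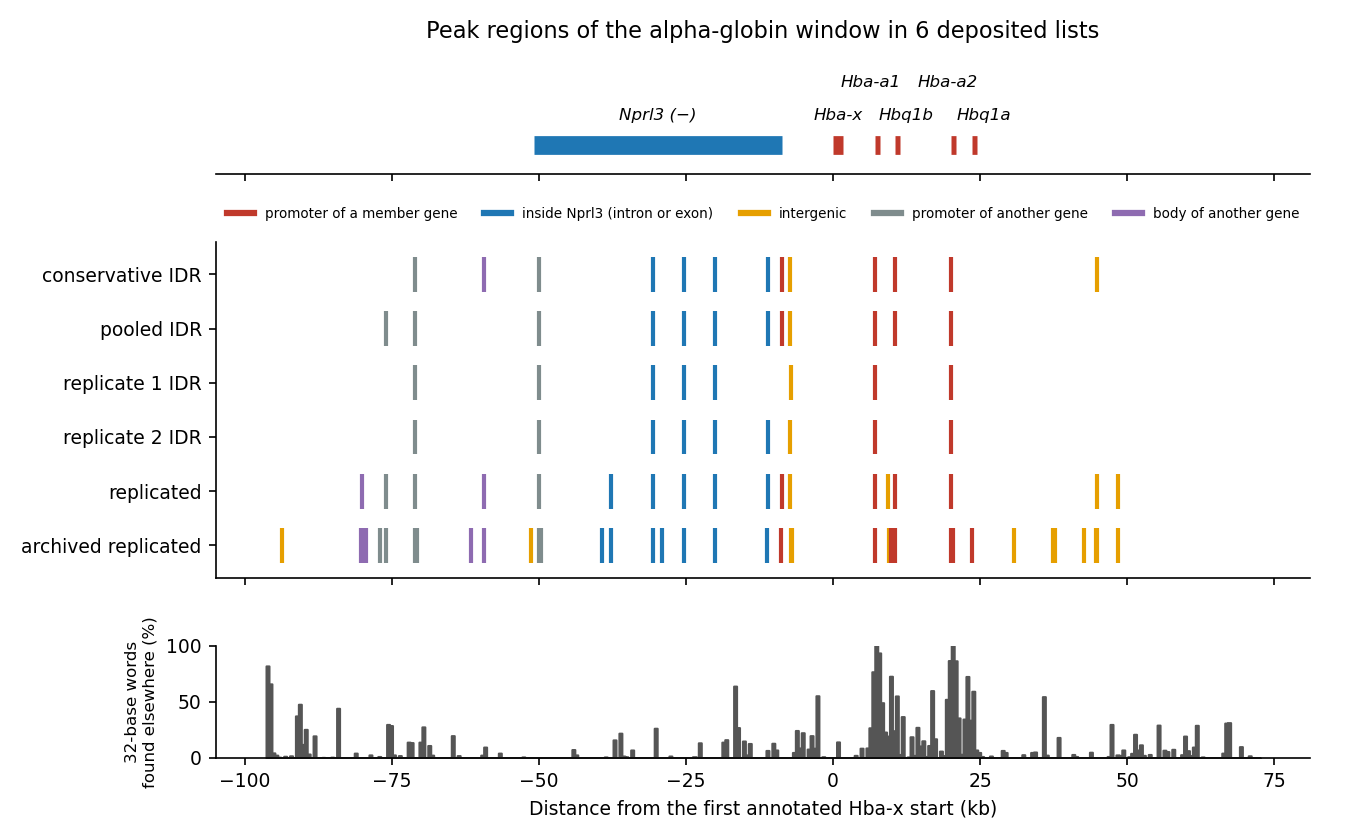
Regions of 6 deposited lists (rows) along the alpha-globin window, by distance from the first annotated Hba-x start (x axis, kb), coloured by class, with the member genes above and the percentage of 32-base words that occur elsewhere in the genome below. The regions at −30.6, −25.4, −20.1 and −7.24 kb appear in every row, no row has a region at Hba-x, and the repeated words peak at the Hba-a1 and Hba-a2 copies.

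Most regions of the window held a GATA match or the CTCF pattern. Within 100 bp of the summit, 8 of the 13 regions held a GATA match, 3 held the CTCF pattern, none held both (beside 1.40% of all conservative regions) and 2 (the promoters of Mpg, a DNA repair gene, and Nprl3) held neither. Over all conservative regions, 33.0% held GATA and 7.23% the CTCF pattern. Within 50 bp of the summit, 5 of the 13 held GATA, and no share over all regions is given for that narrower window. All shares in this paragraph are for 100 bp on either side. Of the 7 distal regions, 5 held GATA, beside 50.9% of all distal regions, and 2 held the CTCF pattern, beside 9.02%. Of the 6 promoter regions, 3 held GATA, beside 13.0%, and 1 the CTCF pattern, beside 5.22%. The 3 CTCF-bearing regions were the Hbq1b promoter, an exon of Rhbdf1 (the gene of an inactive rhomboid protein) at −59.3 kb with a signal of 8.28, and an intergenic region at +44.9 kb with 8.08 and a pair of matches, 1 of them across the summit. The Rhbdf1 exon and the +44.9 kb region were the outermost distal regions of the conservative list in the window. Neither was in the pooled IDR list, where their IDR was 0.0756 and 0.245, nor among regions with an IDR below 0.01, so that in both of these lists Hbq1b alone remained of the 3.

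The composite was present in 2 of the 13 regions (11.7% of all regions), both distal (18.7% of distal regions). Each held it 2 times, which 1.67% of distal regions did. TGANTCA was present in 2 of the 7, beside 11.1%, and both also held GATA, a pairing found in 5.38% of distal regions. The promoter of Snrnp25, which encodes a component of the minor spliceosome, lay at the far end from the globin genes, held 1 GATA match and had the largest signal of the window, 16.6. A match is a description of letters and not a measure of binding.

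**Figure D3:**
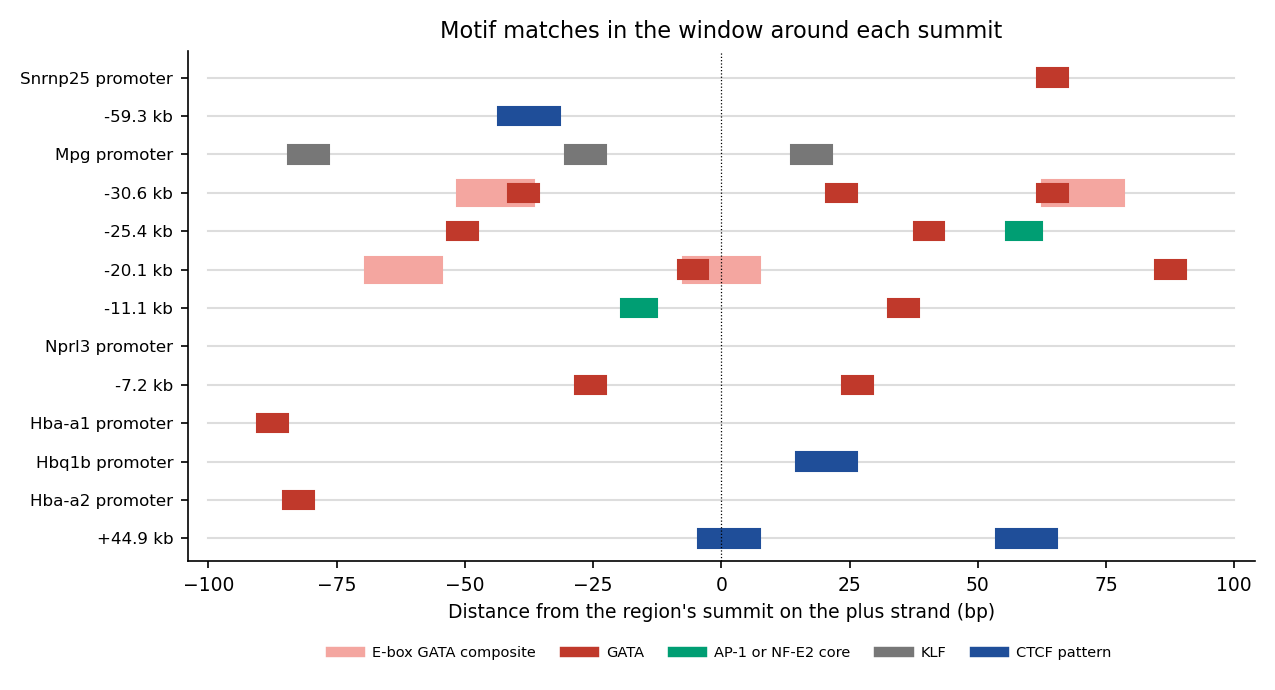
Matches to the motifs within 100 bp of each summit of the 13 conservative regions, by distance from the summit on the plus strand (x axis, bp); each coloured block is a match. GATA blocks lie in the 5 regions at −30.6, −25.4, −20.1, −11.1 and −7.24 kb and at the promoters of Snrnp25, Hba-a1 and Hba-a2. The composite lies only at −30.6 and −20.1 kb, and the CTCF blocks lie at −59.3 kb, at the Hbq1b promoter and at +44.9 kb.

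Not every conservative region of the window was called in each library alone. A call here is an irreproducible discovery rate (IDR, the expected share of peaks that would not recur between replicates or pseudoreplicates) below 0.05 in a library's own list. Of the 13 regions, 8 were called in both libraries, beside 60.7% of all conservative regions, none in replicate 1 only (6.16%), 1 in replicate 2 only (11.7%) and 4 in neither (21.4%). Of the 7 distal regions, 4 were called in both, beside 42.7%, and 2 in neither, beside 32.9%. Of the 6 promoter regions, 4 were called in both, beside 80.7%. The share called in both was near that of the whole list. In the libraries' looser pseudoreplicated lists all 13 regions had a peak in both. A conservative region already rests on peaks in both replicates, and no share over all conservative regions was taken. That count is therefore no result about the window.

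Of the 8 regions with GATA, 7 were called in both libraries, 1 in replicate 2 only and none in neither, beside 27.5% in neither over all regions with GATA. The share of all GATA regions called in both was not taken, so the 7 of 8 is not read as a trait of regions with GATA. Of the 8, 3 were promoter regions, a class called in both at 80.7% over the whole list. Among distal regions with GATA, 4 of 5 were called in both, beside 45.4%. The 3 regions with the CTCF pattern were called in neither, beside 31.3% of all regions with that pattern, so neither of the distal ones was called in both, beside 28.4%. They also had lower signals, 4.84 to 8.28, beside 8.09 to 16.6 for the 8 with GATA. Whether the calls went with the motif or with the signal was not tested. The fourth region called in neither was the Nprl3 promoter, with an IDR of 0.0914 in replicate 1 and 0.267 in replicate 2.

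The region called in replicate 2 only was the one at −11.1 kb. Its IDR was 0.276 in replicate 1 and 0.0169 in replicate 2, and its −log10 p was 13.5 in replicate 1 and 20.7 in replicate 2. Of its 32-base words, 7.74% occurred elsewhere in the genome, against none at −30.6, −25.4, −20.1 and −7.24 kb. Such words also made up 5.33% of the Rhbdf1 exon region. At the promoter regions they made up 87.0% for Hba-a1, 32.8% for Hbq1b and 95.3% for Hba-a2. The part of the repeat at −11.1 kb in the difference was not tested.

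The difference between replicates was measured as the absolute log2 ratio of their −log10 p. Over the 13 regions its median was 0.17, with a range of 0.03 to 0.62, against a median of 0.25 over all conservative regions, with quartiles at 0.12 and 0.44. The region at −11.1 kb had the largest difference of the window, 0.62, close to the value that 90% of all regions stayed under, 0.64. The Hba-a1 promoter (0.52) and the −7.24 kb region (0.46) also lay above the upper quartile, and in all 3 replicate 2 had the larger −log10 p. Hba-a2, the near copy of Hba-a1, had the smallest difference of the window, 0.03.

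**Figure D4:**
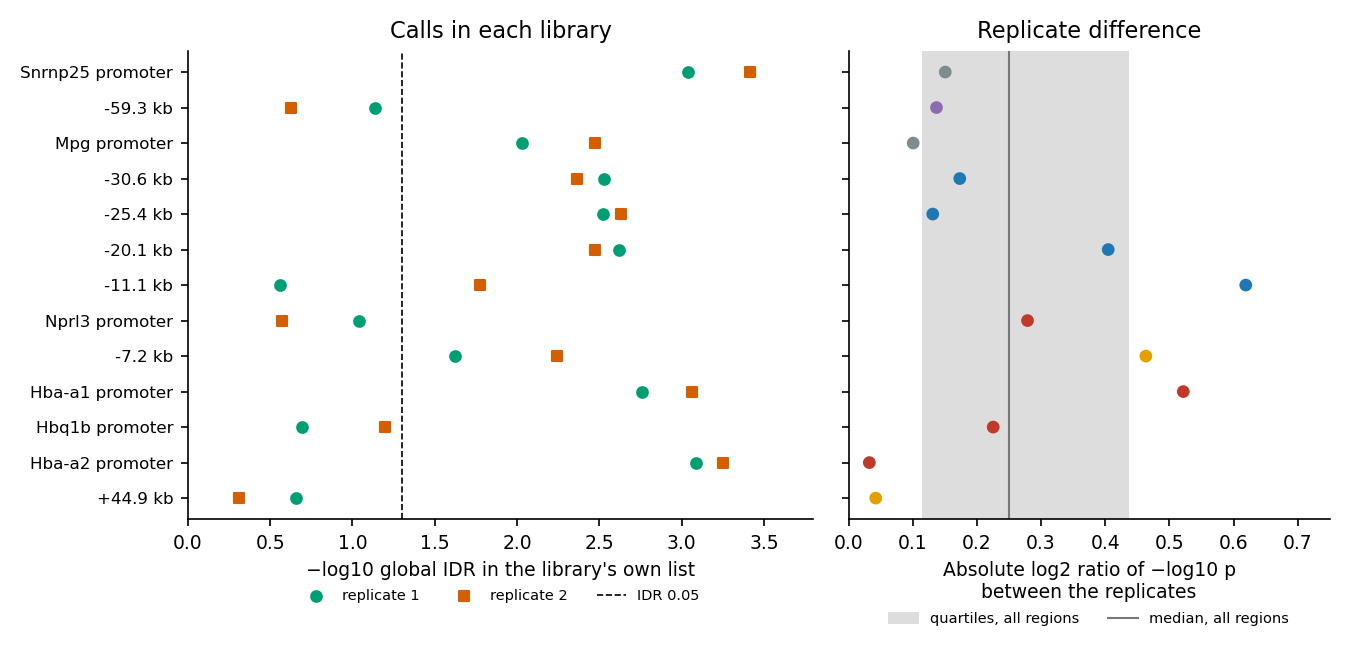
Left, −log10 of the IDR in each library's own list (x axis) for the 13 regions, with circles for replicate 1, squares for replicate 2 and the 0.05 threshold dashed; right, the absolute log2 ratio of −log10 p between replicates (x axis), with the quartile range of all regions in grey. The −11.1 kb region has replicate 1 left of the threshold and replicate 2 right of it, and it has the largest ratio, 0.62.

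No weak peak lay at the promoter of Hba-x. The replicated list, which added 1 site inside Nprl3, held 18 regions in the window, 5 of them (27.8%) with no conservative region, beside 56.8% in that whole list. One was an Nprl3 intron peak at −37.8 kb, chr11:32238508-32238770, with a signal of 7.61, an IDR of 0.0897 between the true replicates and a peak in the list of replicate 2 only (signal 7.13). It held none of the motifs searched. Each motif was searched as fixed patterns of letters, so a site of another form would be missed. Another, at +48.5 kb, had 7.33 and an IDR of 0.0615, the weak peak nearest to the threshold, while the conservative region nearest to it from inside was the one at +44.9 kb, at 0.0348. The others were an Il9r intron peak (3.07), an Il9r promoter peak (4.42; Il9r encodes the interleukin-9 receptor) and a peak between Hba-a1 and Hbq1b (2.13).

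The archived replicated list held 37 regions in the window, 22 of them (59.5%) with no conservative region, beside 85.2% in that list. Its added sites inside Nprl3 were an exon peak with a signal of 3.90 and an intron peak with 2.88. Hbq1a appeared in it with 4.83, so that 5 of the 6 genes had a promoter region, beside 54.7% of all genes. At the edge of the 1 kb rule, a weak peak of that list at −710 bp from the Hbq1b start counted as promoter (signal 2.39) and another at −1110 bp did not (2.51).

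Over the 9 lists that were not ranked lists, the peaks merged into 34 intervals, of which 8 were in every list and 14 in the archived list only. The 8 were the promoters of Snrnp25, Mpg, Hba-a1 and Hba-a2 and the regions at −30.6, −25.4, −20.1 and −7.24 kb. The conservative, pooled and replicated lists gave the same signals at the promoters of Hba-a1, Hba-a2, Hbq1b and Nprl3, so a peak present in all of them is not repeated evidence. The libraries' own lists were the only separate measurements.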

How the data were processed

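The 2 libraries form 1 group, as replicates 1 and 2 per the labels. Some lists were made from both libraries and others from 1 library alone. The deposited files are 13 peak lists on mm10, per the labels. No source used here gives the aligner, the caller of the peaks, read filters, any shift of read ends or versions. Read depth is unknown too, so only the numbers of peaks show precision. In the deposited lists the signal is the authors' enrichment value of a peak, and it was used to describe and rank peaks within a list only. The −log10 p and the IDR score (−log10 of the global IDR) are likewise the authors' deposited values. Results rest mainly on the conservative list, which the authors thresholded by IDR on the true replicates.

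Peaks that overlapped were merged into a region, placed by its strongest summit. Regions were placed with GENCODE M21, whose chromosome names and lengths fitted the peaks on all 21 chromosomes. The members and all protein-coding genes were counted with a promoter region when any region overlapped 1 kb on either side of a start. The 80.7% of promoter regions called in both libraries is over regions placed at a promoter by their summit. A region was called in a library when it overlapped that library's thresholded list by at least 50% of the shorter region. Motifs were searched on both strands of the GRCm38 sequence, the summit with 100 bp on either side. Promoter sequences of all 6 genes came from RefSeq on GRCm38.p6. Repeats were counted as 32-base words of a region found elsewhere on the 21 chromosomes, on either strand. The planned ratio of the replicates was taken from the −log10 p columns of the ranked list, which name no library, so only its absolute size was used. Values named by library came from each library's own ranked list.

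No test was run, since there is 1 group of 2 libraries, and the spread between them may be technical. The text names the 6 genes, other genes with a start within 1 kb of a region of the window, the genes with the most composite-bearing regions in their bodies, and the fixed pathway lists, of which 1 gene is not reported here. The members and lists were chosen with earlier results of these data known. The regulator list held 9 genes, of which 8 were matched in the annotation. Alternatives were other peak lists, each library alone, other overlaps, promoter and motif windows, and rank by −log10 p. Python 3.11.15, numpy 2.4.6 and pysam 0.24.0 were used, and the motif search, merging and word counts were tested on simulated data.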

Additional observations from a re-analysis of the deposited data

How the results depend on the processing

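Of 49 alternative settings, 36 kept the value within its margin and 13 moved it. The margins were wide: 9 and 18 regions counted as kept beside 13, as did a rank in the top 7.50% beside 17.3%. The archived replicated list gave 37 regions in the window (13 in the conservative list), 7 distal regions within Nprl3 (4), 5 regions with the composite (2), 22 weak peaks (5) and a rank of the strongest Nprl3 region in the top 2.75% (17.3%); it is a much longer list, so its ranks show no change. By −log10 p that region stood in the top 34.2%. With 50 bp on either side of the summit, 5 regions held GATA (8 with 100 bp) and 1 the composite (2). With the libraries' pseudoreplicated lists, 13 regions were called in both libraries (8 with their IDR lists), which the choice of conservative regions makes likely. From 1 library alone, the window held 8 to 9 regions, with 3 to 4 within Nprl3, 7 to 8 with GATA and 2 with the composite. It then held 2 of the 6 member promoters, and the promoters of Hbq1b and Nprl3 were those lost. The strongest Nprl3 region ranked in the top 21.4% to 36.9%. Those lists are shorter than the conservative list, so these ranks show no change either. The pooled IDR list, the replicated list and an IDR below 0.01 gave 11 to 18 regions, 4 to 5 within Nprl3 and 4 member promoters. In these lists, which also differ in length, the strongest Nprl3 region ranked in the top 7.50% to 21.5%. Taking the replicate ratio from each library's own list, an alternative chosen after seeing the data, left its median over the window at 0.17. No paired analysis was possible because there is 1 group and no test. Read depth is unknown, so a missing peak, as at Hba-x, says only that none was called.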
